A study of Mus musculus with 12 samples.

Results

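The immediate early and NF-kB response genes are a set of 40 genes, and many of their transcripts rise within minutes to hours of a stimulus. The set was followed here in RNA-Seq libraries of splenic T cells. The genes were taken by name, as the rows of the raw count table whose Ensembl identifier carries one of 40 listed symbols in the annotation of the mouse genome GRCm38, and make up 40 of the 49315 genes of the table. All 40 had at least 1 count in every library and all 40 passed the low-count filter in each of the comparisons. The libraries came from 12-week-old male mice that were infused for 14 days from osmotic minipumps with the blood pressure-raising peptide Ang II (angiotensin II) at 490 ng/kg each day, or with vehicle (sham). WT (wild-type) mice and miR-214-/- mice, which lack the microRNA miR-214 in every tissue and not in T cells alone, gave 4 groups with 3 mice each and 1 library per mouse. The groups are WT sham, WT Ang II, miR-214-/- sham and miR-214-/- Ang II. T cells were kept from the spleen by magnetic removal of other cells, so the purity of each library rests on that step. The number of reads counted on genes was between 21126874 and 29605988 per library. The hairpin of miR-214 (Mir214) had 0 counts in all 12 libraries, and its host transcript Dnm3os had 1 count in 1 library and 0 in the other 11, so these poly(A) libraries cannot check the genotype.

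Immediate early genes are transcribed without new protein synthesis, when kinases activate factors that already sit at their promoters, and many code for transcription factors of the next wave, such as the Fos and Jun proteins that pair to form AP-1. NF-kB works in the same time frame: its Rel and p50 subunits are held in the cytoplasm by inhibitors such as IkBα, enter the nucleus when these are degraded, and switch on the genes of their own inhibitors. In T cells both programs follow antigen receptor engagement, and several members also rise when cells are handled or dissociated from tissue.

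Promoter windows of 300 bases from RefSeq (250 before and 50 after an annotated start site, GRCm38.p6) were at hand for 31 of the 40 genes, and those of Egr1, Egr3, Myc, Ier2, Sik1, Rgs1, Cd69, Nfkbiz and Nfkb1 are not shown. The windows of 6 genes are printed 5′ to 3′, with matches to the searched motifs in capitals, for genes that the comparisons turn on. They hold matches to the NF-kB consensus (kB site), the cAMP response element TGACGTCA (CRE), the AP-1 site TGANTCA or the TATA box TATAAA, searched on both strands.
Fos promoter, chr12:85473640-85473939, plus strand: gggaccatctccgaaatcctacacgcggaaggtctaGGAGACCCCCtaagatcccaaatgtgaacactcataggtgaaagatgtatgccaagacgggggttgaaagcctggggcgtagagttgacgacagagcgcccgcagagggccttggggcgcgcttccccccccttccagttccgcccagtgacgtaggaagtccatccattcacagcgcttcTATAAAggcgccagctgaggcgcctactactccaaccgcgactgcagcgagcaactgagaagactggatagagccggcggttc
Junb promoter, chr8:84978699-84978998, minus strand: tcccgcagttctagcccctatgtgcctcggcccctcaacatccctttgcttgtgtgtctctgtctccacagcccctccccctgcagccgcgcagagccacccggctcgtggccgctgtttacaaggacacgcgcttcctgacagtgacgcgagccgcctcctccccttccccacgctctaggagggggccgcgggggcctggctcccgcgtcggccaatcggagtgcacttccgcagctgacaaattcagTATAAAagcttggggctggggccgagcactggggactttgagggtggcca
Btg2 promoter, chr1:134079106-134079405, minus strand: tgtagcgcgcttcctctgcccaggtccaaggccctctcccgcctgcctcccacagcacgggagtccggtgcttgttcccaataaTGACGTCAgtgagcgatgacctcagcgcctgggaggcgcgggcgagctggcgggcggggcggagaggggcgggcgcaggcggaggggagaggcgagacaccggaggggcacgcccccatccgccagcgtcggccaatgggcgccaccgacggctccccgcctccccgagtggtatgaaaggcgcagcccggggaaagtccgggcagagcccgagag
Ppp1r15a promoter, chr7:45526219-45526518, minus strand: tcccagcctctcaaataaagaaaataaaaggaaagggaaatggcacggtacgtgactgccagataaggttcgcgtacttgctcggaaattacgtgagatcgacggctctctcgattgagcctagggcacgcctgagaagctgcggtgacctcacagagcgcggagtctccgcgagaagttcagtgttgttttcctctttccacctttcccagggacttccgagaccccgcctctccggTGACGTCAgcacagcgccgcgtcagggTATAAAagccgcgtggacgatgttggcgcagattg
Nfkbid promoter, chr7:30422156-30422455, plus strand: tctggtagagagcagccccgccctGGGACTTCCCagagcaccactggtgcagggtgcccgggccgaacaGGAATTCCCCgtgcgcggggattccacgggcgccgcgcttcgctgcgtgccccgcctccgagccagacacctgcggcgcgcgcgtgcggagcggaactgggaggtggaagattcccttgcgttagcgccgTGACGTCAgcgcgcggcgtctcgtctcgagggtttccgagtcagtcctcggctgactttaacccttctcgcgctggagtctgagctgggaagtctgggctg
Tnfaip3 promoter, chr10:19015361-19015660, minus strand: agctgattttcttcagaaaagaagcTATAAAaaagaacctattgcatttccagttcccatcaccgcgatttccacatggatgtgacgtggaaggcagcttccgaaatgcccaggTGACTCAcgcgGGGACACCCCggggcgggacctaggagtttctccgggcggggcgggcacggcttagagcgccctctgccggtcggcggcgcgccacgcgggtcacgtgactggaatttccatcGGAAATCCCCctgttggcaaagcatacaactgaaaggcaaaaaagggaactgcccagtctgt

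The window of Tnfaip3, an NF-kB target whose product dampens NF-kB, held kB sites, an AP-1 site and a TATA box. That of Nfkbid, an atypical IkB protein, held kB sites and a CRE, and those of Btg2 and Ppp1r15a each held a CRE. Over the 43 windows of the 31 genes, some of which overlap each other, a kB site was matched in 23.3%, against 4.51% of all 32851 windows in the table. The corresponding shares were 9.3% and 1.79% for the CRE, 11.6% and 1.63% for the serum response element (CArG box), 6.98% and 7.81% for the AP-1 site, and 23.3% and 13.6% for the TATA box. By gene, the CArG box was matched in 2 of 31 (Egr2, which holds 4 of the 5 matching windows, some of them overlapping, and Zfp36), the kB site in 10, the CRE in 4, the AP-1 site in 3 and the TATA box in 10. No match of one motif overlapped a match of another in these windows. The windows of the set were richer in G and C, with a median of 61.3% against 52.7%. A match is a run of letters and not an occupied site. Matches were counted at any position: TATAAA began at -33 from the annotated start site in Fos, 0 in Junb, 15 in Ppp1r15a and -225 in Tnfaip3. Sites outside the windows, or in the 9 genes without a window (Egr1 and Egr3 among them), were not searched.

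The 3′ ends of the transcripts carry AU-rich elements, which the decay factors Zfp36 and Zfp36l1, themselves members of the set, bind to shorten the life of an mRNA. The heptamer TATTTAT stood in the 3′ UTR of 22 of 40 members (55%) and of 27.6% of 21000 genes, and the nonamer TTATTTATT in 27.5% and 7.67%, at a median UTR length of 1208 and 961 bases. The members' fragments below show the element in capitals, first in Fos, then in Zfp36l1 and Ppp1r15a, and, for the microRNA that the knockout removes, its seed (bases 2 to 8) in capitals beside a matching site in Btg1. The seed site CCTGCTG was present in 7 of 40 members (17.5%, in Maff, Klf6, Ier3, Rhob, Btg1, Rel and Nfkb1) and in 19.3% of all genes.
Fos AU-rich element: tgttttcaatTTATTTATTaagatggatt
Zfp36l1 AU-rich element: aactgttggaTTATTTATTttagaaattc
Ppp1r15a AU-rich element: tagtttcctaTTATTTATTtatttattta
Btg1 miR-214-3p seed site: gtctcactctCCTGCTGgccaatttgt
mmu-miR-214-3p, chr1:162223438-162223459, plus strand: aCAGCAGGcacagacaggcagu

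The label of the libraries was checked against T cell markers. All 13 markers listed (among them Cd3e, Cd4, Cd8a, Lck and Zap70) were read in every library, at a summed level of 5315 to 6126 CPM (counts scaled to library size) in WT sham and 3637 to 4261 CPM in WT Ang II. The ranges in miR-214-/- mice were 4981 to 5696 CPM (sham) and 4086 to 5389 CPM (Ang II). Markers of other cells were read as well, and some lists were higher after Ang II in WT: those of neutrophils summed to 198 to 253 CPM in WT sham and 1118 to 3342 CPM in WT Ang II, and those of red-cell precursors to 386 to 590 and 1337 to 5849 CPM. In WT all 7 B cell and all 6 NK cell markers had log2 fold changes below 0 (medians -0.32 and -0.73). In miR-214-/- mice the neutrophil markers summed to 238 to 958 CPM in sham and 607 to 3039 CPM in Ang II, and the red-cell markers to 353 to 650 and 664 to 4758 CPM. In such mixed libraries, fewer T cells and less RNA of a gene per T cell cannot be told apart. Replicates are separate mice.

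Levels within the set were compared per kilobase of exon. Over all libraries Junb had the highest mean, 261 ± 82.0 CPM per kb (SD, n = 12 libraries), followed by Btg1 at 244 ± 50.6 and Jund at 168 ± 39.9. These SDs hold differences between the groups as well as between mice. The means of Junb and Btg1 differed by less than their SDs, and their order depended on treatment. Junb was above Btg1 in sham (341 and 286 CPM per kb in WT, 321 and 279 in miR-214-/-). After Ang II it was below Btg1 (172 and 189 in WT, 212 and 222 in miR-214-/-). Atf3 had the lowest mean over all libraries, 1.40 ± 0.627 CPM per kb, though in WT Ang II Maff, at 1.23, was lower than Atf3. Abundance did not follow role: Jun stood at 71.8 and Fosb at 6.39 CPM per kb, both of them AP-1 subunits, and, in the NF-kB list, Nfkbia stood at 119 and Nfkb1 at 27 CPM per kb.

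Spread between mice differed between the members. The median within-group SD of log2 CPM over the 40 genes was 0.225, against 0.194 over the 16770 genes kept in all 12 libraries. Atf3, at 0.682, and Fosb, at 0.642, varied more than 95.9% and 95.3% of those genes, and Egr3, at 0.110, more than 18.9% of them. In WT sham, replicate 1 was the highest of the 3 libraries for 26 of the 40 members (31.9% of all genes) and replicate 3 the lowest for 27 (37.2%). Fosb, for example, was read at 110.3, 27.4 and 27.9 CPM there, so that 1 library stood at about 4 times the others. In miR-214-/- sham, replicate 3 was the highest for 21 members (29.4% of all genes).

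**Figure D1:**
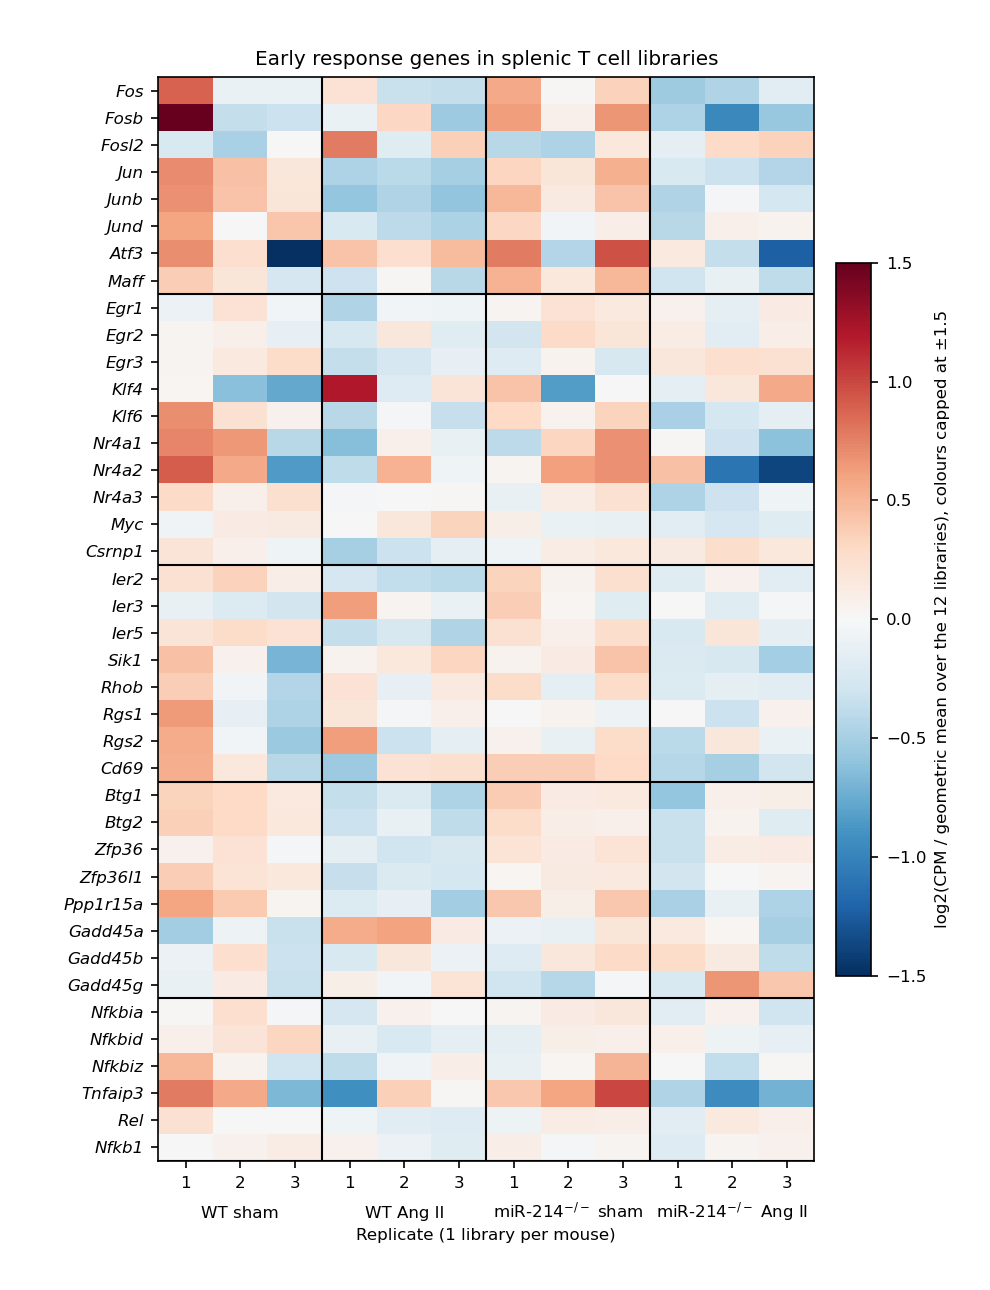
Level of each of the 40 genes (rows, in 5 blocks by role) in each of the 12 libraries (columns), as the log2 ratio of its CPM to its geometric mean over the libraries, with colors capped at ±1.5. WT sham replicate 1 is red for most rows, and Fosb there, at 110.3 CPM, is the strongest red of its row.

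The first comparison was that of Ang II with sham in WT mice, which asks how the infusion changes the set in T cells. Of the 40 genes, 10 fell and 1 rose at an adjusted p under 0.05 (edgeR quasi-likelihood test, Benjamini-Hochberg over 16012 genes, 3 against 3 mice). The 10 were the AP-1 subunits Jun, Junb and Jund, the early response genes Ier2 and Ier5, the growth-arrest and mRNA decay genes Btg1, Btg2 and Zfp36l1, the stress phosphatase subunit Ppp1r15a and the IkB protein Nfkbid. Gadd45a, a DNA damage and growth arrest gene, was the one that rose. Over all genes tested, 7.06% fell and 11.7% rose by the same rule. The members' median log2 fold change was -0.24, against -0.02 over all genes, 28 of 40 members (70%) were below 0, and none of those called passed a 2-fold change. At an unadjusted p under 0.05 there were 17 members, 14 of them lower, where 35.6% of all genes passed. Groups did not overlap for 16 members that were lower and 2 that were higher (Gadd45a and Ier3), against 22% and 19.1% of all genes.

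These falls came with lower T cell markers. In the same comparison 11 of the 13 T cell markers fell and the other 2 did not pass, with a median log2 fold change of -0.49 and no overlap for any of the 13, and all 10 neutrophil, all 6 basophil and mast cell and 6 of 11 red-cell markers rose. When the libraries were scaled to the summed counts of the T cell markers in place of TMM (the trimmed mean scaling of edgeR), the median over all genes moved to 0.48 and that over the members to 0.25. On that scale 8 members passed, where 50.2% of all 16012 genes did, 8021 of them higher and 16 lower. Junb alone was lower, with a log2 fold change of -0.48 ± 0.17, and Fosl2, Klf4, Myc, Ier3, Gadd45a, Gadd45g and Nfkb1 were above 0. Relative to the shifted median of 0.48, Nfkb1, at 0.39 ± 0.08, was below it. The other 9 genes that fell under TMM had values between -0.40 (Jun) and 0.16 (Nfkbid, the only one whose sign turned) and did not pass. The part of cell makeup in the falls was not tested beyond this scaling. With DESeq2, 15 members passed, 12 of them lower, including all 11 called by edgeR, where 22.9% of all genes passed.

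**Figure D2:**
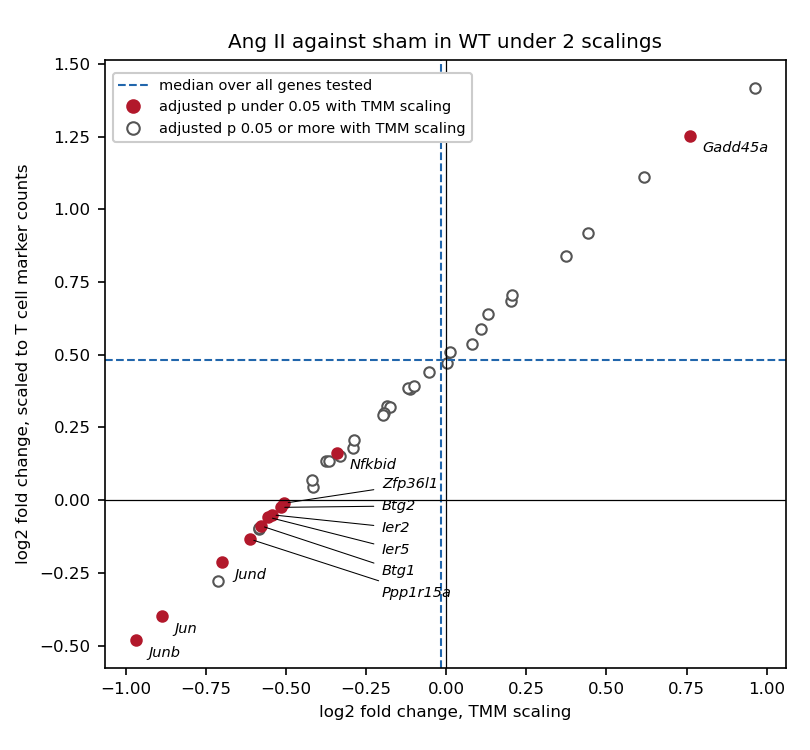
Log2 fold change of each of the 40 genes, Ang II against sham in WT, with TMM scaling (horizontal) and with scaling to T cell marker counts (vertical). Filled points passed an adjusted p of 0.05 with TMM, and dashed lines mark the median over all genes tested, -0.02 and 0.48. Junb and Jun are lowest on both axes, and the sign of Nfkbid turns from -0.34 to 0.16.

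Among the AP-1, ATF and Maf factors, 3 of 8 fell and none rose, with a median log2 fold change of -0.56. Junb (ENSMUSG00000052837, chr8:84974484-84978718, minus strand), a Jun protein that restrains as well as activates AP-1 targets, was read at 926, 775 and 653 CPM in the 3 WT sham libraries and at 385, 421 and 381 CPM in the 3 WT Ang II libraries. Every sham library was above every Ang II library, and the log2 fold change was -0.97 ± 0.13 (SE, adjusted p = 0.00613 by edgeR), a level 0.512 times that of sham. Jun (ENSMUSG00000052684, chr4:95049034-95052222, minus strand), the founding AP-1 subunit, was read at 357, 298 and 246 CPM in the 3 WT sham libraries and at 159.7, 165 and 156 CPM in the 3 WT Ang II libraries. The Ang II values lay close together and below all sham values, with a log2 fold change of -0.89 ± 0.13 (adjusted p = 0.00772 by edgeR). Jund (ENSMUSG00000071076, chr8:70698949-70700616, plus strand), which unlike its relatives is also present in resting cells, was read at 413, 275 and 366 CPM in the 3 WT sham libraries and at 233, 209 and 197 CPM in the 3 WT Ang II libraries. The groups did not overlap, at -0.70 ± 0.15 (adjusted p = 0.0226 by edgeR), and the call was lost in 4 of 6 fits that left out 1 library. The share of all genes called was 18.8% with all libraries and 5.7% to 21.8% in those fits.

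None of the Fos proteins, the partners of Jun in AP-1, passed in WT with edgeR. Fos (ENSMUSG00000021250, chr12:85473890-85477273, plus strand) was read at 344, 174 and 175 CPM in the 3 WT sham libraries and at 218, 149 and 146 CPM in the 3 WT Ang II libraries. The sham library with the highest value, replicate 1, stood apart from the other 2, which lay within the range of the Ang II libraries, and the fold change did not pass (-0.41 ± 0.30, adjusted p = 0.359 by edgeR), and with scaling to T cell markers it turned to 0.05. Fosl2 had a log2 fold change of 0.62 ± 0.25 and Fosb of -0.71 ± 0.56, and neither passed with edgeR, though DESeq2 called Fosl2 higher. The stress factor Atf3 stood at 0.683 to 4.27 CPM in WT sham, a range of 6.26-fold, and the small Maf protein Maff at 2.79 to 4.84 CPM over both WT groups.

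None of the 10 other early transcription factors passed in WT with edgeR. A log2 fold change below 0 was read for 8 of 10 (median -0.24), and with scaling to T cell markers it turned for Egr1, Egr2, Egr3, Nr4a2, Nr4a3 and Csrnp1. Under TMM, 4 of the 10 (Egr3, Klf6, Nr4a3 and Csrnp1) were lower in every Ang II library than in any sham library, as were 22% of all genes. Egr1, the zinc finger factor of the serum response, was read at 66.8, 82.2 and 69 CPM in the 3 WT sham libraries and at 52, 68.9 and 68 CPM in the 3 WT Ang II libraries, with overlapping groups (-0.19 ± 0.13). Nr4a1, an orphan nuclear receptor induced by the antigen receptor, was read at 92.6, 87.4 and 41.8 CPM in the 3 WT sham libraries and at 35.8, 58.7 and 51.6 CPM in the 3 WT Ang II libraries. Replicate 3 of the sham group fell among the Ang II libraries, and the difference did not pass (-0.59 ± 0.31, adjusted p = 0.227 by edgeR). Myc, the growth factor-induced driver of T cell expansion, was read at 100.3, 113 and 114 CPM in the 3 WT sham libraries and at 104, 117 and 131 CPM in the 3 WT Ang II libraries, which overlapped (0.13 ± 0.10). Klf4, a quiescence factor that is also abundant in myeloid cells, had the highest fold change of the set, 0.96 ± 0.39, but overlapping groups and an adjusted p of 0.126 by edgeR.

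Among the 8 early response and signaling proteins, Ier2 and Ier5 fell and the other 6 did not pass. Ier5 (ENSMUSG00000056708, chr1:155096361-155099636, minus strand), a nuclear early response protein linked to the heat shock factor, was read at 207, 219.6 and 211 CPM in the 3 WT sham libraries and at 142, 153 and 132 CPM in the 3 WT Ang II libraries. It had the smallest p of the set, with a log2 fold change of -0.55 ± 0.07 (adjusted p = 0.00402 by edgeR). Ier2 (ENSMUSG00000053560, chr8:84661331-84662852, minus strand) was read at 163, 175 and 148 CPM in the 3 WT sham libraries and at 116, 107 and 105 CPM in the 3 WT Ang II libraries, again without overlap, at -0.54 ± 0.09 (adjusted p = 0.0089 by edgeR). Cd69, the surface marker of recent activation that holds lymphocytes in tissue, was read at 156, 119 and 79.9 CPM in the 3 WT sham libraries and at 73.4, 124 and 126 CPM in the 3 WT Ang II libraries. These ranges overlapped widely, and the log2 fold change was -0.11 ± 0.28, which turned to 0.38 with scaling to T cell markers. Sik1, Rhob, Rgs1 and Rgs2, a kinase, a small GTPase and regulators of G protein signaling, had fold changes between 0.00 (Rgs1) and 0.20 (Sik1).

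The genes of mRNA turnover, growth arrest and stress held 4 of the falls and the rise, with a median of -0.40. Btg1 (ENSMUSG00000036478, chr10:96617006-96622809, plus strand), which brings the deadenylase complex to mRNAs and keeps T cells quiescent, was read at 1584, 1551 and 1392 CPM in the 3 WT sham libraries and at 986, 1088 and 913 CPM in the 3 WT Ang II libraries. Its relative Btg2 (ENSMUSG00000020423, chr1:134075170-134079120, minus strand) was read at 358, 344 and 310.0 CPM in the 3 WT sham libraries and at 224, 259 and 215 CPM in the 3 WT Ang II libraries. Both pairs of groups were apart, at -0.58 ± 0.10 for Btg1 (adjusted p = 0.0111 by edgeR) and -0.52 ± 0.09 for Btg2 (adjusted p = 0.0124 by edgeR). Zfp36l1 (ENSMUSG00000021127, chr12:80107754-80113013, minus strand), which binds the AU-rich elements printed above, was read at 186, 165 and 161 CPM in the 3 WT sham libraries and at 113, 123 and 119 CPM in the 3 WT Ang II libraries, a log2 fold change of -0.51 ± 0.08 (adjusted p = 0.00807 by edgeR). Its relative Zfp36 was lower in each Ang II library under TMM, turned to 0.21 with scaling to T cell markers, and missed the threshold (-0.29 ± 0.09, adjusted p = 0.0648 by edgeR). Ppp1r15a (ENSMUSG00000040435, chr7:45522916-45526268, minus strand), the phosphatase subunit that restores translation after stress, was read at 182, 158 and 124 CPM in the 3 WT sham libraries and at 105, 111 and 84 CPM in the 3 WT Ang II libraries. The groups did not overlap, at -0.61 ± 0.16 (adjusted p = 0.0375 by edgeR), with the call kept in 2 of 6 fits that left out 1 library.

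Gadd45a (ENSMUSG00000036390, chr6:67035096-67037457, minus strand) was read at 11.4, 15.6 and 13 CPM in the 3 WT sham libraries and at 24.2, 24.9 and 17.9 CPM in the 3 WT Ang II libraries. Every Ang II library was above every sham library, with a log2 fold change of 0.76 ± 0.18 (adjusted p = 0.0278 by edgeR), and the call held in 3 of 6 fits without 1 library. Its relatives Gadd45b (0.01 ± 0.18) and Gadd45g (0.21 ± 0.19) did not pass. All 10 cell cycle genes listed, such as Mki67 and Top2a, rose in the same comparison, with a median of 2.33, and their part in the value of Gadd45a was not tested.

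All 6 NF-kB factors and inhibitors had a log2 fold change below 0 in WT under TMM scaling (median -0.20), which turned positive for all 6 with scaling to T cell markers, and 1 passed. Nfkbid (ENSMUSG00000036931, chr7:30421732-30428746, plus strand), a nuclear IkB protein that acts with p50, was read at 41.3, 44.5 and 48.8 CPM in the 3 WT sham libraries and at 36.1, 33.4 and 35.2 CPM in the 3 WT Ang II libraries. The groups were apart, with the smallest fold change among those called (-0.34 ± 0.09, adjusted p = 0.0412 by edgeR), and the call was kept in 1 of 6 fits without 1 library. Nfkbia, the gene of IkBα, was read at 194, 227 and 187 CPM in the 3 WT sham libraries and at 161, 199.7 and 191 CPM in the 3 WT Ang II libraries, which overlapped (-0.12 ± 0.11). Tnfaip3, the ubiquitin editor A20, was read at 409, 354 and 149.7 CPM in the 3 WT sham libraries and at 126, 307 and 243 CPM in the 3 WT Ang II libraries. Sham replicate 3 and Ang II replicate 1 were the low libraries of their groups, and the difference of -0.42 ± 0.43 was within the spread. Rel and Nfkb1, the subunits c-Rel and p105/p50, had values of -0.20 ± 0.09 and -0.10 ± 0.08.

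The rest of these pathways was read from 3 further lists, under TMM and beside the lower T cell markers described above. Of 17 genes upstream of the set (kinases, serum response, CREB and NFAT factors), Elk4 (-0.39 ± 0.06, adjusted p = 0.00805 by edgeR) and Nfatc3 (-0.24 ± 0.06) fell in WT and the ERK kinase gene Mapk3 (0.57 ± 0.14) rose. Of 28 other early and feedback genes tested, 5 fell, among them Klf2 (-0.86 ± 0.11), a quiescence factor, and Nab2 (-0.53 ± 0.12), a corepressor of Egr proteins. The 3 that rose were Mafg (0.81 ± 0.07), Klf10 (0.52 ± 0.13) and the cell cycle inhibitor Cdkn1a (1.35 ± 0.25). Of 24 other NF-kB pathway genes, 8 fell and none rose, among them Tnip1 (-0.50 ± 0.10), a partner of A20, and the kinase gene Ikbkb (-0.33 ± 0.07). Over all genes 7.06% fell and 11.7% rose. Median log2 fold changes of the 3 lists were -0.14, -0.11 and -0.18, and with scaling to T cell markers 0.36, 0.37 and 0.32, where that over all genes was 0.48. On that scale Elk4 (0.11), Nfatc3 (0.26) and Ikbkb (0.17) turned, Tnip1 (-0.01) and Nab2 (-0.03) were near 0, and Klf2 (-0.38) was the only gene of the 3 lists that passed below 0.

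**Figure D3:**
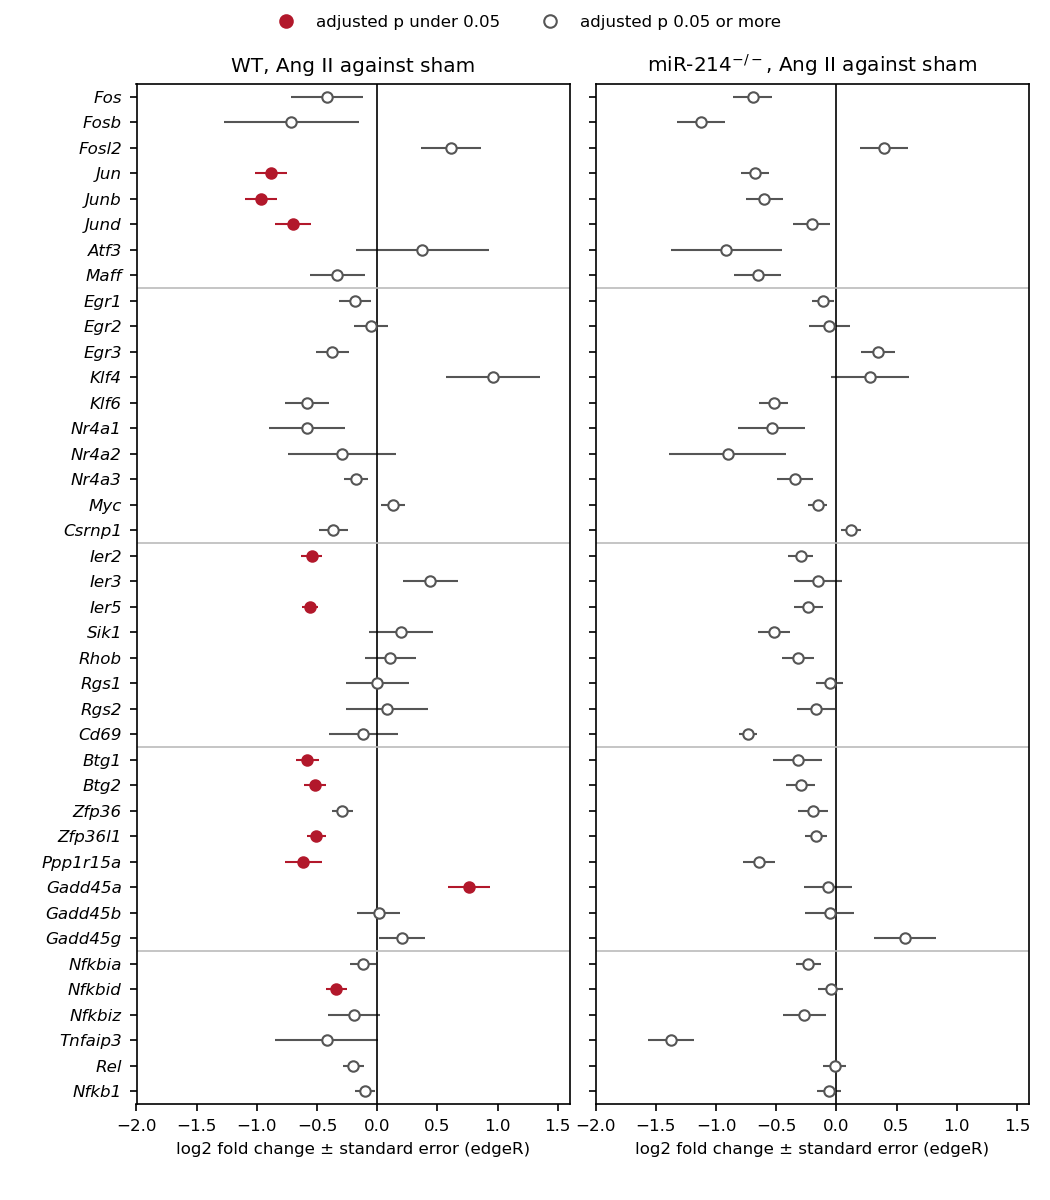
Log2 fold change ± SE for Ang II against sham, for the 40 genes in 5 blocks by role, in WT (left) and miR-214-/- mice (right). Filled points passed an adjusted p of 0.05 by edgeR, which 11 genes did in WT and 0 in miR-214-/-. The lowest value on the right is that of Tnfaip3, at -1.37, which did not pass.

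The same comparison in miR-214-/- mice, which shares no library with that in WT, gave no call. With edgeR, 0 of 40 members passed, as did 0% of all 15937 genes tested, and the smallest adjusted p was 0.149. DESeq2 called 9 members, all lower (Fos, Fosb, Jun, Junb, Klf6, Sik1, Cd69, Ppp1r15a and Tnfaip3), where it called 2.14% of all genes. Without a low-count filter edgeR called 2, Cd69 and Tnfaip3, where 0.0176% of all genes passed. At an unadjusted p under 0.05 there were 14 members, 13 of them lower, against 12.2% of all genes. The median log2 fold change of the members was -0.23, with 35 of 40 (87.5%) below 0, where all genes had a median of 0.03 and 45.5% below 0. Groups did not overlap for 15 members that were lower and 1 that was higher (Egr3), against 10.5% and 8.83% of all genes.

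In this comparison the T cell markers gave no call. Their median log2 fold change was -0.07, and 0 of 13 passed, with 1 at an unadjusted p under 0.05. Scaling to their counts moved the median over all genes to 0.14 and that of the members to -0.13, with 0 members passing (0% of all genes). Of the 35 values below 0, it turned those of Egr1, Egr2, Rgs1, Gadd45a, Gadd45b, Nfkbid, Rel and Nfkb1, none of them over 0.08. The library with the lowest T cell sum was Ang II replicate 1, and that with the highest neutrophil and red-cell sums was Ang II replicate 2. Genes of heat shock and cell handling summed to 3730 to 5294 CPM in miR-214-/- sham and 2939 to 3162 CPM in miR-214-/- Ang II, and to 3131 to 5150 and 3345 to 4210 CPM in the WT groups. With edgeR 0 of these 10 genes passed in miR-214-/- and 0 of 9 in WT. At an unadjusted p under 0.05 there were 3 in miR-214-/-, all lower, and 2 in WT, 1 higher and 1 lower. In miR-214-/- 4 of the 10 were lower without overlap, against 10.5% of all genes, and in WT 1 of 9, against 22%. The list was mixed, with log2 fold changes above 0 for 2 of 10 in miR-214-/- (up to 1.52) and 3 of 9 in WT. Hspa1a was read at 33.0 CPM in miR-214-/- Ang II replicate 1 and at 1.70 to 6.90 CPM in the other miR-214-/- libraries. The part of these heat shock and handling genes in the members' values was not tested.

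Cd69 had the smallest p in miR-214-/- mice, with 138, 138 and 131 CPM in miR-214-/- sham and 79.6, 75.9 and 88.1 CPM in miR-214-/- Ang II. The sham libraries lay close together and all stood above the Ang II libraries, with a log2 fold change of -0.74 ± 0.07 (adjusted p = 0.149 by edgeR). With scaling to T cell markers the value was -0.62. Tnfaip3 was read at 317, 361 and 479.9 CPM in miR-214-/- sham and 174, 124 and 146 CPM in miR-214-/- Ang II. Its groups were far apart, a level 0.386 times that of sham (-1.37 ± 0.19, adjusted p = 0.208 by edgeR), and this was the widest difference of any member in either genotype under TMM. With scaling to T cell markers it was -1.25.

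The AP-1 genes had the lowest median of the 5 roles in miR-214-/- mice, -0.67, with 5 of 8 lower without overlap, against 10.5% of all genes. Jun was read at 275, 249 and 318 CPM in miR-214-/- sham and 187, 175 and 161 CPM in miR-214-/- Ang II, a log2 fold change of -0.68 ± 0.12 (adjusted p = 0.218 by edgeR). Fos was read at 277, 189 and 238 CPM in miR-214-/- sham and 129, 137 and 168 CPM in miR-214-/- Ang II, which did not overlap (-0.70 ± 0.16). Junb was read at 813, 629 and 776 CPM in miR-214-/- sham and 422, 561 and 477 CPM in miR-214-/- Ang II, again with each Ang II library lower (-0.60 ± 0.15). Fosb (-1.13 ± 0.20) and Maff (-0.65 ± 0.19) completed the 5, whereas Jund overlapped (-0.20 ± 0.15).

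None of the other well-known members passed in miR-214-/- mice with edgeR. Egr1 was read at 73, 82.6 and 78.5 CPM in miR-214-/- sham and 74.3, 64.3 and 77 CPM in miR-214-/- Ang II, with overlap. Nr4a1 was read at 42.5, 70 and 89.5 CPM in miR-214-/- sham and 56.7, 45.2 and 36.4 CPM in miR-214-/- Ang II, where 1 sham library lay below 2 of the Ang II libraries. Nfkbia was read at 197, 208 and 215 CPM in miR-214-/- sham and 169.8, 199.9 and 155 CPM in miR-214-/- Ang II, which overlapped through Ang II replicate 2. Of the genes called in WT, Ppp1r15a was read at 160.1, 128 and 160.3 CPM in miR-214-/- sham and 86.4, 112 and 87.7 CPM in miR-214-/- Ang II, without overlap (-0.64 ± 0.14). Btg1 and Btg2 were lower in each Ang II library (-0.32 ± 0.20 and -0.30 ± 0.12), Btg1 mainly through Ang II replicate 1, at 844 CPM. Ier2 (-0.30 ± 0.10), Ier5 (-0.23 ± 0.12), Zfp36l1 (-0.17 ± 0.09), Nfkbid (-0.05 ± 0.10) and Gadd45a (-0.07 ± 0.20) overlapped.

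The libraries of the other genes called in WT were as follows in miR-214-/- mice. Jund was read at 339, 266 and 293 CPM in miR-214-/- sham and 206, 288 and 284 CPM in miR-214-/- Ang II. Ier2 was read at 174, 143 and 163 CPM in miR-214-/- sham and 122, 144 and 124 CPM in miR-214-/- Ang II, and Ier5 at 213, 191 and 218 CPM in miR-214-/- sham and 155, 206 and 165 CPM in miR-214-/- Ang II. In each of these 3 genes at least 1 Ang II library lay within or above the range of the sham libraries. Btg1 was read at 1641, 1374 and 1396 CPM in miR-214-/- sham and 844, 1333 and 1344 CPM in miR-214-/- Ang II, and Btg2 at 338, 299 and 294 CPM in miR-214-/- sham and 221, 289.6 and 245 CPM in miR-214-/- Ang II, both without overlap. Zfp36l1 was read at 147, 157 and 159 CPM in miR-214-/- sham and 119, 143 and 148 CPM in miR-214-/- Ang II, and Nfkbid at 35.4, 41.6 and 41.2 CPM in miR-214-/- sham and 41.1, 36.9 and 35.8 CPM in miR-214-/- Ang II, both with overlap. Myc, at 111, 97.1 and 96.2 CPM in miR-214-/- sham and 92.4, 87.5 and 91.9 CPM in miR-214-/- Ang II, and Sik1, at 39, 40.9 and 50.3 CPM in miR-214-/- sham and 32.3, 31.8 and 26.4 CPM in miR-214-/- Ang II, were lower in each Ang II library (-0.16 ± 0.08 and -0.52 ± 0.13), and in WT sham Sik1 was read at 50.8, 39 and 23 CPM.

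Across the genotypes, 7 members were lower without overlap in both (17.5%, Jun, Junb, Klf6, Btg1, Btg2, Zfp36 and Ppp1r15a), against 5.33% of the 15622 genes tested in both. None was higher without overlap in both. A single member, Egr3, had opposite directions without overlap, as did 0.518% of all genes, though with scaling to T cell markers its value in WT turned from -0.37 to 0.13.

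**Figure D4:**
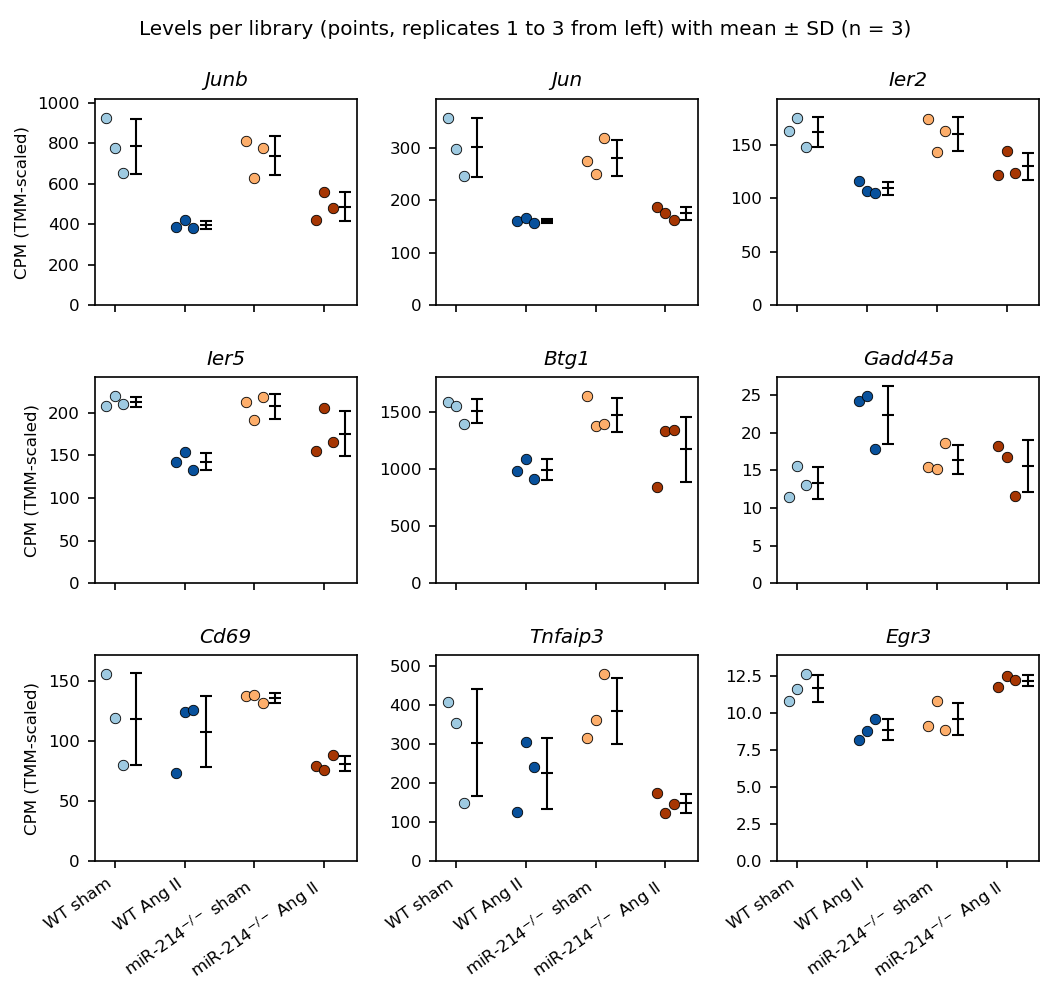
CPM of 9 of the 40 genes in each library (points) with the mean ± SD of each group (n = 3 mice), on axes that start at 0. Junb and Jun are lower in both Ang II groups than in their sham groups, Cd69 and Tnfaip3 overlap in WT and not in miR-214-/-, and Egr3 under TMM is lower in WT Ang II (a direction that turns, to 0.13, with scaling to T cell markers) and higher in miR-214-/- Ang II than in the sham group of the same genotype.

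Genotype was compared within each treatment. These comparisons share their libraries with those above. In sham, 0 of 40 members passed with edgeR and 0 with DESeq2, where 0.0251% and 0.602% of all genes passed, and 0 members had an unadjusted p under 0.05, against 6.67% of all genes. The members' median log2 difference, miR-214-/- minus WT, was -0.01, and scaling to T cell markers moved it to 0.10 and the median over all genes to 0.11. Only Zfp36l1, at 186, 165 and 161 CPM in WT and 147, 157 and 159 CPM in miR-214-/- sham, did not overlap (4.79% of all genes were lower in this way and 5.4% higher), a difference of -0.15 ± 0.08. Nfkbid (-0.19 ± 0.09) and Egr3 (-0.28 ± 0.14), which had the smallest p with Zfp36l1, were read at 35.4, 41.6 and 41.2 CPM and 9.13, 10.8 and 8.83 CPM in miR-214-/- sham. Marker lists differed between the sham groups as well. Median differences were 0.82 for cell cycle, 1.45 for neutrophil, -1.22 for B cell and -0.14 for T cell markers. None of these genes passed, though all 10 cell cycle genes had an unadjusted p under 0.05. Their part in the members' values was not tested.

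Under Ang II, 0 of 40 members passed with edgeR and 0 with DESeq2, where 0% and 0.224% of all genes passed. At an unadjusted p under 0.05 there were 9 members, 5 higher and 4 lower in miR-214-/-, against 8.56% of all genes. Groups did not overlap for 5 members that were higher in miR-214-/- (Junb, Egr3, Csrnp1, Ier2 and Ier5, where 8.02% of all genes were) and 5 that were lower (Atf3, Nr4a3, Myc, Sik1 and Rhob, where 5.94% were). Scaling to T cell markers moved the median over all genes to -0.29 and turned, among these 10, the differences of Junb (to -0.00) and Ier2 (to -0.04). Csrnp1, a nuclear protein of the AXUD family, was read at 33.5, 37.7 and 42.9 CPM in WT Ang II and 52.1, 56.6 and 52.9 CPM in miR-214-/- Ang II, a difference of 0.50 ± 0.11 (adjusted p = 0.569 by edgeR). Sik1, a kinase induced by cAMP signals, was read at 39, 42 and 46.9 and 32.3, 31.8 and 26.4 CPM (-0.50 ± 0.13). Myc was read at 104, 117 and 131 CPM in WT Ang II and 92.4, 87.5 and 91.9 CPM in miR-214-/- Ang II, the latter close together and all lower (-0.37 ± 0.10). T cell markers were higher in the miR-214-/- Ang II libraries, with a median difference of 0.31 and 0 of 13 passing.

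The difference between the genotypes in their response to Ang II was tested as an interaction over all 12 libraries. None of the 40 members passed with edgeR (0.00596% of all genes did), and 8 had an unadjusted p under 0.05, 6 with a positive value, against 14.8% of all genes. DESeq2 called 1, Egr3, where it called 3.22% of all genes. The T cell markers had a median interaction of 0.48, 0 of 13 passed, and scaling to them moved the median over all genes to -0.39. So although 11 members passed in WT and none in miR-214-/-, a difference between the genotypes was not shown for any of the 11. For Junb the interaction was 0.38 ± 0.21, for Jun 0.22 ± 0.18 and for Ier5 0.34 ± 0.15 on the log2 scale, and scaling to T cell markers turned those of Junb (to -0.02), Jun (to -0.16) and Ier5 (to -0.08).

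Egr3 (ENSMUSG00000033730, chr14:70077203-70082614, plus strand), a zinc finger factor induced by the antigen receptor that limits T cell activation, had the smallest p. It was read at 10.8, 11.6 and 12.6 CPM in the 3 WT sham libraries and at 8.18, 8.76 and 9.61 CPM in the 3 WT Ang II libraries, and at 9.13, 10.8 and 8.83 CPM in miR-214-/- sham and 11.8, 12.5 and 12.2 CPM in miR-214-/- Ang II. Under TMM, Ang II libraries were all below sham in WT (which turned with scaling to T cell markers, as above) and all above sham in miR-214-/-. The interaction was 0.74 ± 0.18 (adjusted p = 0.213 by edgeR), and 0.32 with scaling to T cell markers. Csrnp1 was read at 54.3, 49.8 and 45.2 CPM in WT sham and 45.2, 51.2 and 52.6 CPM in miR-214-/- sham, which with its Ang II values gave 0.51 ± 0.15 (adjusted p = 0.216 by edgeR), and 0.09 with scaling to T cell markers. Gadd45a was read at 15.4, 15.2 and 18.7 CPM in miR-214-/- sham and 18.3, 16.8 and 11.6 CPM in miR-214-/- Ang II, with overlap in miR-214-/-, and an interaction of -0.82 ± 0.28 (adjusted p = 0.248 by edgeR), and -1.19 with scaling to T cell markers. The interaction of Gadd45a was the only negative one of these 3, and none of them passed. Over all 40 members the lowest interaction was -1.28.

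Averaged over the 40 genes, the log2 CPM of a WT library was 6.03 ± 0.25 in sham and 5.83 ± 0.03 after Ang II (SD, n = 3 mice). In miR-214-/- mice the averages were 6.07 ± 0.10 in sham and 5.77 ± 0.03 after Ang II (SD, n = 3 mice). In WT, sham replicate 3 lay at 5.77, below all 3 Ang II libraries, so the groups overlapped there, and in miR-214-/- every sham library was above every Ang II library. These averages are under TMM. With scaling to T cell markers the members' median log2 fold change turned from -0.24 to 0.25 in WT and was -0.13 in miR-214-/-. Of the 40 genes, 8 share exonic sequence with a gene on the opposite strand (Jun, Junb, Jund, Csrnp1, Zfp36, Zfp36l1, Ppp1r15a and Gadd45a, the partner of Junb being Prdx2), and, with the strand setting of the counting not given in the sources used here, reads from the partner may be included.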

How the data were processed

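RNA-Seq of splenic T cells from 12 male mice (4 groups of 3, 1 library per mouse) was read from 1 table of raw counts per gene as deposited. Per the labels and the study's methods, the authors made it from poly(A) stranded libraries by trimming paired-end reads, mapping them to GRCm38 with STAR and counting unique exonic reads with featureCounts (Subread 1.5.2). The annotation release and the strand setting of the counting are not given in the sources used here. Unique counting leaves out reads shared with near-identical copies. All 12 count columns were used.

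Identifiers were named by the GENCODE annotation of GRCm38. Another 259 identifiers, with 0.0245% of the counts, had no match and were kept. Counts were analyzed with edgeR 4.0.16 in R 4.3.3: genes with few counts were removed by filterByExpr, libraries were scaled by TMM, and the quasi-likelihood test was used with Benjamini-Hochberg adjustment over all genes tested and a threshold of 0.05. Each comparison of 3 against 3 mice was fitted on its own 6 libraries, and the interaction on 12. CPM values use TMM-scaled library sizes. The SE of an edgeR log2 fold change is its absolute value divided by the square root of the quasi-likelihood F statistic. No exact permutation test was run, because 3 against 3 mice cannot go below p = 0.1. The procedure was tested on simulated data. DESeq2 1.42.0 (the tool named in the study's methods), other scalings, filters and fits, and fits without each library were alternatives. Of 12 pairs of replicate libraries, 0 were identical.

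The 40 genes, the lists of pathway and marker genes and the tests were chosen with earlier results of these data known, so no list is independent evidence. Values in every library were given for members with an adjusted p under 0.05 in any comparison, for the 3 with the smallest p in each comparison and for Fos, Jun, Junb, Egr1, Nr4a1, Cd69, Myc, Nfkbia and Tnfaip3. Of the marker lists, in WT 1 of 12 monocyte and macrophage, 2 of 6 megakaryocyte and 1 of 5 plasma cell genes rose, 1 of 6 NK cell genes fell, and 0 of 7 B cell genes passed. In miR-214-/- 0 genes of any list passed with edgeR. Motifs and sites were searched in the RefSeq promoter windows of GRCm38.p6 and in the 3′ UTR of 1 transcript per gene, with Python 3.11.15, numpy 2.4.6 and matplotlib 3.10.9.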

Additional observations from a re-analysis of the deposited data

Results flagged for a closer look

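Egr3 was singled out because its response to Ang II differed in direction between the genotypes, with no overlap between the groups in either. The difference between the genotypes, as an interaction, was 0.74 on the log2 scale and was tested: it did not pass with edgeR (adjusted p = 0.213) and passed with DESeq2 (adjusted p = 0.0173). Of the 15622 genes tested in both genotypes, 81 (0.518%) had opposite directions without overlap. With scaling to T cell marker counts the value in WT turned to 0.13.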

How the results depend on the processing

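For Ang II against sham in WT, 11 of 40 members passed the threshold. Of all genes, 18.8% passed in this fit. The count was 10 to 15 with DESeq2, RLE or library size scaling, other low-count filters, the adjusted-deviance fit and 1 fit over all groups, where 10% to 22.9% of all genes passed. It was 8 with scaling to T cell markers (50.2% of all genes), of which 2 were among the 11. It was 0 when a 2-fold change was required as well (7.3%). It was 6 to 12 without 1 library: 6 without WT Ang II replicate 3 (5.7% of all genes), 7 without WT sham replicate 1 (6.85%), and 12 without WT Ang II replicate 1 (21.8%). Jun, Junb, Ier2, Ier5 and Zfp36l1 passed in all 6 fits without 1 library. Nfkbid turned from -0.34 to 0.16 with scaling to T cell markers, which by construction sets the summed level of these markers equal in all libraries. That scaling moved the mean log2 CPM of the members in WT Ang II from 5.83 to 6.13. It lowered levels in WT sham, where the mean of Junb went from 784 to 682 CPM. The members' median log2 fold change in WT turned from -0.24 to 0.25, where that over all genes went from -0.02 to 0.48.

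In miR-214-/- the count was 0 with edgeR, 9 with DESeq2 and 2 without a low-count filter, and 0 in each fit without 1 library. For the interaction it was 0, with 1 by DESeq2 and 0 to 2 without 1 library. The 2 (Egr3 and Zfp36l1) came without miR-214-/- Ang II replicate 1. That fit also called 919 of all 17172 genes tested (5.35%), against 0.00596% with all libraries. The cause of these changes was not tested. Both comparisons of genotype gave 0 throughout.

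Replicate numbers are shared by the groups but did not mark shared mice. Correlations of same-numbered libraries, taken on log2 CPM after subtracting each gene's group mean, ranged from -0.62 to 0.25. With the replicate block, 11 members passed in WT (14.9% of all genes), 10 of them shared with the fit without it, and 0 elsewhere. Each member had at least 1 count in every library, and the effect of depth was not tested. The number of mice, 3 per group, limits the precision.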
